A study of Mus musculus with 22 samples.

Results

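Lectin receptors as a class are known for binding glycans. Of these, Mgl2, Clec10a, Cd209a, Clec7a, Cd207, Mrc1 and Ly75 were followed through dendritic cells (DCs) of the mouse. These 7 genes were chosen by name, and each was found among the 34047 genes of the count table. Their transcripts were measured by RNA sequencing in 16 libraries, and open chromatin at their loci by ATAC-seq, which cuts accessible DNA with a transposase, in 6 spleen libraries. Of 177956 windows of 150 bases around ATAC summits, 50 lay in 22 of 74217 peaks for which a lectin was the closest gene.

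C-type lectin receptors sit in the membrane of antigen-presenting cells. Many bind sugars of microbes, allergens and the host's own glycoproteins through a calcium-dependent fold. Most of the receptors described here are endocytic: they carry bound cargo inside for processing and presentation. Clec7a, which encodes Dectin-1, also signals for inflammation through Syk and Card9. Conventional DCs fall into cDC1s, known for presenting antigen to CD8 T cells, and cDC2s, known for priming CD4 T cells, and lectins are widely used to tell such subsets apart.

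All cells came from Tbx21RFP-cre mice of both sexes, aged 6 to 10 weeks, in which a red fluorescent protein (RFP) and Cre are driven by the T-bet gene Tbx21. The DCs were sorted as lineage-negative, CD64-, Ly6C-, CD11c+ and MHCII+ cells, and then as T-bet+ cDC2s (CD11b+ XCR1- RFP+), T-bet- cDC2s (CD11b+ XCR1- RFP-) or cDC1s (CD11b- XCR1+). Spleen gave 3 RNA libraries and 2 ATAC libraries per subset, while the mesenteric lymph nodes (MLN) gave 3 RNA libraries from cDC1s and a pair from either cDC2 subset, with no ATAC-seq. Each RNA library pooled cells of a pair of mice, and because no label ties a library to particular mice, the p-values measure the spread between these libraries.

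Libraries held 20993220 to 27317480 counted reads in spleen, 22733964 to 29006549 in the MLN and 7270164 to 10081555 in ATAC windows. The sorted identity was seen in the marker genes, with Xcr1 at 445 to 1219 CPM, normalised reads per 1000000 counted reads, in cDC1s and at most 34.0 in any cDC2 library, and Tbx21 at 17.2 to 24.8 CPM in spleen T-bet+ cDC2s, 2.93 to 7.19 in MLN T-bet+ cDC2s and at most 2.38 elsewhere. MLN libraries of T-bet+ cDC2s and of cDC1s were not alike in migratory DC markers. The summed CPM of 8 such markers (Ccr7, Fscn1 and others) was 3129 in T-bet+ replicate 1 and 12114 in T-bet+ replicate 2, and 4459, 16226.5 and 15715 in the 3 cDC1 libraries, with 13076 and 14136.5 in T-bet- cDC2s, against 1600.43 to 5064 in spleen. Spleen libraries also fell into 2 classes by how their levels followed the GC content of genes, with all T-bet+ libraries in one class, and the spleen differences are therefore also given with that class as a term where it matters. In the MLN, both T-bet+ libraries and cDC1 replicate 1 were in one class and cDC1 replicates 2 and 3 in the other. The MLN T-bet- pair was split between the classes. The class was a term in spleen fits only, and its part in the MLN differences was not tested. The classes were set within each tissue and do not compare libraries between tissues.

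The plot of levels by library shows each lectin across subsets and tissues. In spleen, T-bet+ cDC2s had 4 of the 7 lower and 0 higher relative to T-bet- cDC2s, where 3.44% of 14377 tested genes were lower and 1.95% higher. Against spleen cDC1s, 3 lectins were higher and 2 lower in T-bet+ cDC2s (9.97% and 8.2% of all genes), and 4 were higher and 2 lower in T-bet- cDC2s (9.65% and 6.2%). The median log2 difference of the lectins was -2.34, 1.38 and 4.89 in these 3 comparisons, beside -0.01, 0.03 and -0.01 over all genes. All calls on RNA are from edgeR's quasi-likelihood test at a Benjamini-Hochberg adjusted p below 0.05 over all genes tested.

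**Figure D1:**
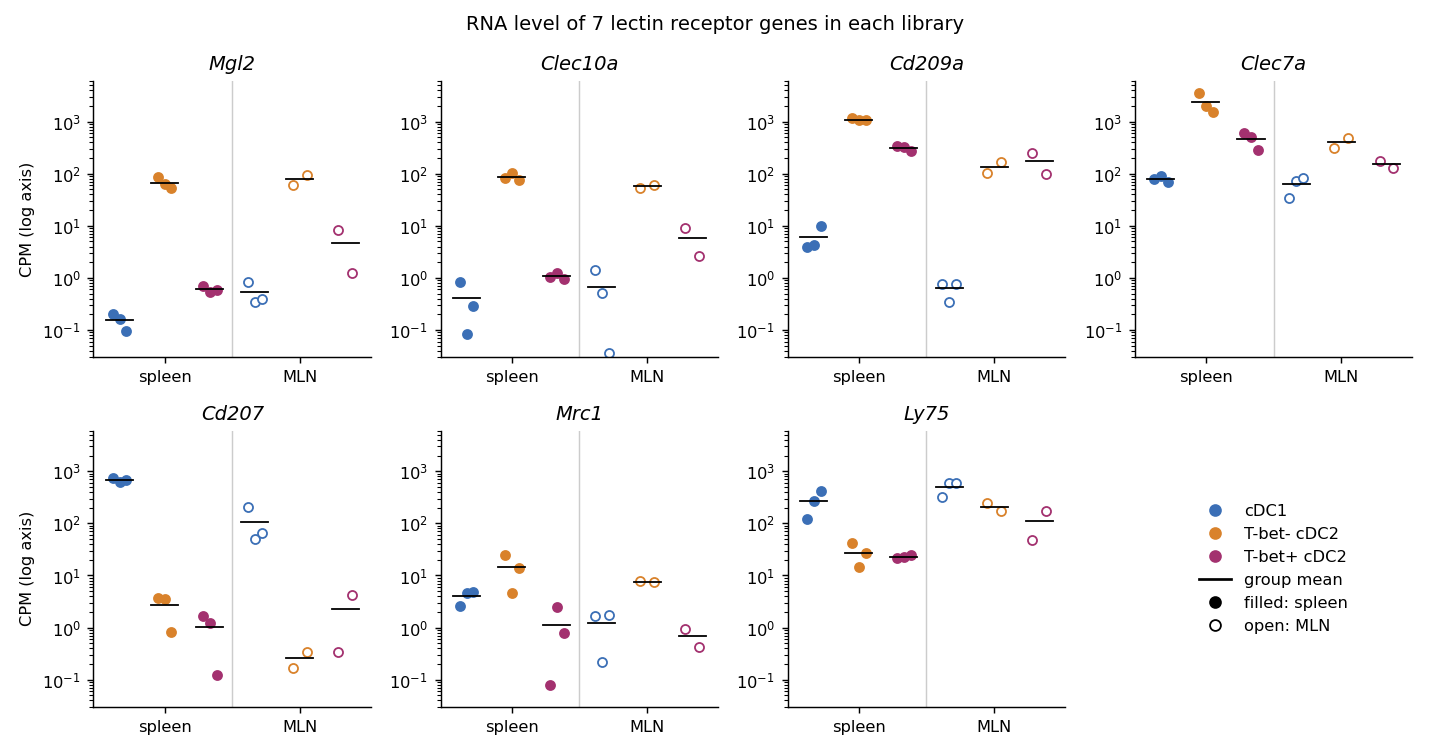
Level of each lectin gene in each of 16 RNA libraries, in CPM on a log axis, by subset; filled points are spleen, open points MLN, and short lines mark group means. Mgl2 and Clec10a stood at 52.2 to 101 CPM in every T-bet- cDC2 library and at or below 8.92 CPM in every other library, while Cd207 stood at 49.9 CPM or more in cDC1 libraries alone.

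Mgl2 and Clec10a are the mouse galactose-type lectins, also called CD301b and CD301a, which bind terminal galactose and N-acetylgalactosamine. They lie in tandem on the plus strand at chr11:70130329-70137550 and chr11:70156197-70170834 (mm10), 18647 bases apart. Their sequences are close to each other, and as reads aligned to more than one place were discarded before counting, stretches shared by both copies may be undercounted. No accessible window had either gene as its closest. A window 3924 bases upstream of Mgl2, closest to Gm12311, was called lower in both cDC2 subsets than in cDC1s (T-bet+ -3.62, adjusted p = 2.6e-06, and T-bet- -2.92, adjusted p = 4.61e-05).

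In spleen T-bet- cDC2s, Mgl2 was at 87.2, 63.5 and 52.2 CPM in the 3 libraries. In spleen T-bet+ cDC2s it was at 0.713, 0.525 and 0.581 CPM, and in spleen cDC1s at 0.202, 0.165 and 0.0967 CPM, which were 5, 4 and 2 reads. The 3 groups did not overlap, and the transcript was close to undetected in the other spleen subsets. T-bet- cDC2s were 418-fold above cDC1s (log2 difference 8.71 ± 0.40, adjusted p = 3.23e-06). From T-bet- to T-bet+ cDC2s the log2 level changed by -6.79 ± 0.36 (SE), 111-fold lower, with an adjusted p of 4.43e-05. T-bet+ cDC2s were 3.78-fold above cDC1s (log2 difference 1.92 ± 0.38, adjusted p = 0.00669), a call between few reads that was lost when only those subsets were fitted (adjusted p = 0.0516).

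Clec10a followed the same order. Its level was 84.2, 101 and 76.8 CPM in spleen T-bet- cDC2s, 1.03, 1.24 and 0.954 CPM in T-bet+ cDC2s and 0.850, 0.0823 and 0.290 CPM in cDC1s, whose libraries held 21, 2 and 6 reads. T-bet- cDC2s were again far above both other subsets. The T-bet+ level was 80.9-fold lower (log2 -6.34 ± 0.60, adjusted p = 0.000563), and the T-bet- level was 210.4-fold above cDC1s (log2 7.72 ± 0.65, adjusted p = 4.75e-05, and 8.83 without cDC1 replicate 1). T-bet+ cDC2s and cDC1s differed by 1.38 ± 0.57 with an adjusted p of 0.133, and the difference was called without cDC1 replicate 1 (2.50, adjusted p = 0.00988).

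In the MLN both galactose-type lectins again had their highest levels in T-bet- cDC2s, at 59.9 and 95.4 CPM for Mgl2 and 53.2 and 60.4 CPM for Clec10a. The pair of T-bet+ libraries was uneven, with Mgl2 at 8.24 and 1.23 CPM and Clec10a at 8.92 and 2.62 CPM. MLN cDC1s held 0.852, 0.347 and 0.400 CPM of Mgl2 and 1.42, 0.520 and 0.0364 CPM of Clec10a. The T-bet+ and T-bet- groups did not overlap for either gene. Neither difference passed the main edgeR test in the MLN (Mgl2 -4.07 ± 0.83, unadjusted p = 0.00123 and adjusted p = 0.239, and Clec10a -3.34 ± 1.0, adjusted p = 0.363). An edgeR fit with a block on the number in the library name called both, as given in the part on processing. Against MLN cDC1s, T-bet- cDC2s were higher in Mgl2 by 7.22 ± 0.83 (149-fold, adjusted p = 0.00352) and in Clec10a by 6.47 ± 1.00 (88.7-fold, adjusted p = 0.0106), the Clec10a call being lost without either T-bet- library (adjusted p = 0.0737 and 0.0736) and its value moving to 7.81 without cDC1 replicate 1 and to 5.88 without cDC1 replicate 3.

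That MLN comparison of cDC2 subsets called 0% of 15298 genes in either direction at the adjusted threshold, with 1444 genes at an unadjusted p below 0.05, and so 0 of 7 lectins were called higher or lower in it by edgeR, 5 of them having an unadjusted p below 0.05. By DESeq2, 2 of the 7 lectins passed there, Mgl2 (adjusted p = 1.54e-05) and Mrc1.

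Levels of macrophage genes moved with Mgl2 and Clec10a. The summed CPM of 12 macrophage markers was 1202.8 to 1702 in spleen T-bet- cDC2s and 492 to 576 in spleen T-bet+ cDC2s. Beside 3.44% of all genes lower and 1.95% higher, 8 of the 11 tested markers were lower and 0 higher in T-bet+ cDC2s. Among those lower were C1qa (136 to 206 against 11.3 to 18.5 CPM), Fcgr1, which encodes CD64 (5.36 to 7.91 against 0.412 to 0.831 CPM), and Mertk (2.52 to 6.49 against 0 to 0.396 CPM). In the MLN the sum was 1459.79 and 2491 in T-bet- and 395 to 408 in T-bet+ cDC2s. Vsig4, a marker of resident macrophages, was at 0 in every cDC2 library, while Adgre1, which encodes F4/80, was at 336 to 551 CPM in spleen T-bet- and 347 to 416 CPM in spleen T-bet+ cDC2s. The sort was gated on cells without the macrophage and monocyte proteins CD64 and Ly6C on their surface. In the paper, cells sorted with these gates for single-cell RNA sequencing still held a contaminating population of Ly6C+ monocytes. The part of macrophages in the Mgl2 and Clec10a values was not tested. In bulk libraries, fewer cells of a type and less RNA per cell cannot be told apart.

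**Figure D2:**
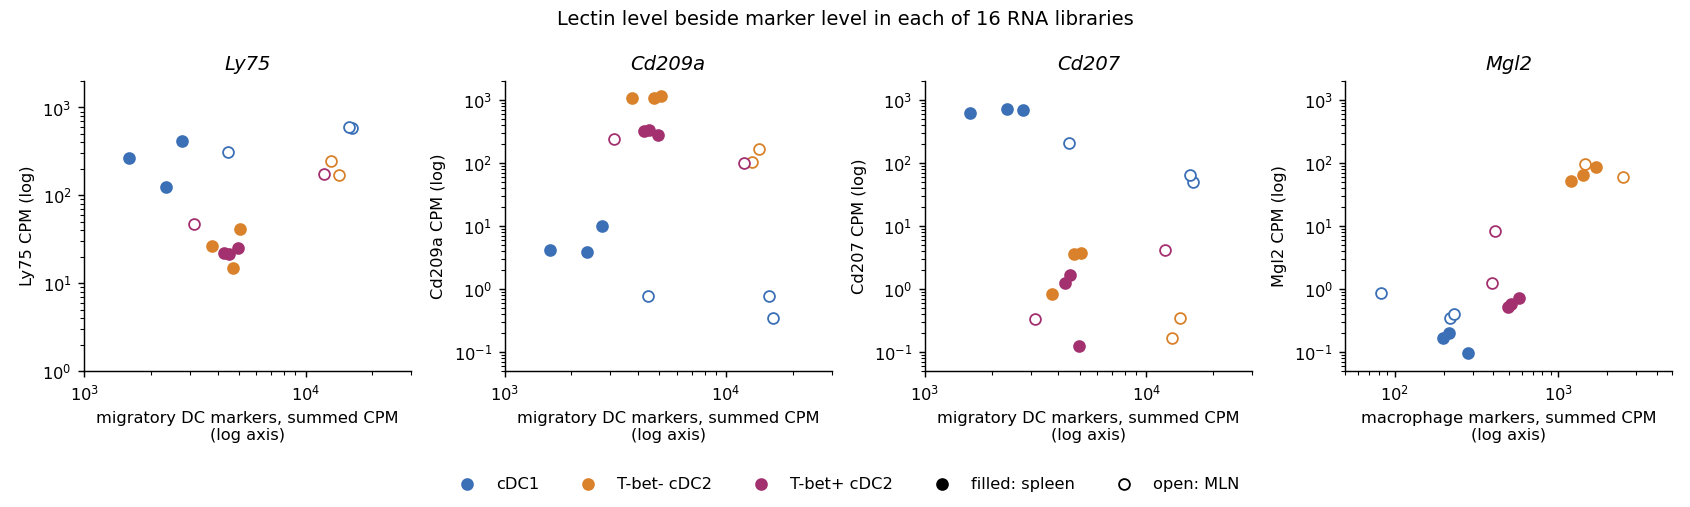
Level of Ly75, Cd209a and Cd207 against the summed level of 8 migratory DC markers, and of Mgl2 against the summed level of 12 macrophage markers, all in CPM on log axes, in each of 16 RNA libraries; filled points are spleen, open points MLN. MLN T-bet+ replicate 1 lies at 3129 CPM of migratory markers, within the spleen range, with 47.6 CPM of Ly75, and MLN T-bet+ replicate 2 at 12114 CPM, with 175 CPM of Ly75.

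Cd209a encodes a mouse relative of human DC-SIGN, which binds mannose- and fucose-bearing glycans. The gene lies on the minus strand at chr8:3743397-3748984. In spleen it was at 1149, 1060.04 and 1069.8 CPM in T-bet- cDC2s, at 335, 327 and 274 CPM in T-bet+ cDC2s and at 3.93, 4.24 and 10.0 CPM in cDC1s. The 3 subsets did not overlap, and both cDC2 subsets stood far above cDC1s.

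T-bet+ cDC2s held 3.50-fold less Cd209a RNA than T-bet- cDC2s in spleen (log2 -1.81 ± 0.33, adjusted p = 0.0133). With any one T-bet+ library left out the difference stayed between -1.86 and -1.72 but the call was lost (adjusted p = 0.059, 0.0629 and 0.0689), and a fit that included the library class gave -1.42 (adjusted p = 0.0158). Over cDC1s, T-bet+ cDC2s were 51.6-fold higher (5.69 ± 0.39, adjusted p = 1.31e-05) and T-bet- cDC2s 181-fold higher (7.50 ± 0.43, adjusted p = 5.32e-06). The order of the cDC2 subsets was not seen in the MLN. There Cd209a was at 104 and 168 CPM in T-bet- cDC2s and at 245 and 99.7 CPM in T-bet+ cDC2s, which overlapped (0.31 ± 0.48, adjusted p = 0.893), while cDC1s had 0.771, 0.347 and 0.765 CPM.

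Chromatin at Cd209a did not separate the subsets as the RNA did. Of its 4 windows, 0 passed the ATAC threshold, an adjusted p below 0.01 with an absolute log2 difference over 0.5, in any of the 3 comparisons, by edgeR or by DESeq2. At an unadjusted p below 0.05, edgeR had 1 window between the cDC2 subsets, 1 for T-bet+ cDC2s against cDC1s and 0 for T-bet- cDC2s against cDC1s. The window 14 bases from the start held 6.23 and 6.59 CPM of the ATAC reads in cDC1s, 6.23 and 5.62 in T-bet- cDC2s, and 8.63 and 8.81 in the T-bet+ subset. Summed over the 4 windows, the reads were 14.9 and 14.3 CPM in cDC1s, 16.9 and 16.04 in T-bet- cDC2s, and 22.7 and 21.8 in the T-bet+ subset, so the subset with the highest RNA level was not the one with the most reads. The intronic window printed next showed the largest difference between cDC2 subsets at this locus, with none called (0.60, adjusted p = 0.293). Of its bases 71.3% are masked as repeat, and it holds no match to the 8 motifs searched.
Cd209a, chr8:3744288-3744437, minus strand, 4622 bases from the gene start: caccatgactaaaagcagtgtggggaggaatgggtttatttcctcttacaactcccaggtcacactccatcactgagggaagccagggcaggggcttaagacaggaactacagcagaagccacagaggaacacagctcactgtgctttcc

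Clec7a encodes Dectin-1, the receptor for fungal beta-glucans. It lies on the minus strand at chr6:129461591-129472779, within a cluster of lectin genes, and the gene annotation used here classes the reference copy as a polymorphic pseudogene. Per kilobase of exon it had the highest mean level of the 7 lectins in spleen T-bet- cDC2s, at 893 ± 411 CPM per kilobase (SD, n = 3), with Cd209a next at 691 ± 31.0, and the libraries of the pair overlap on that scale. In CPM it stood at 3577, 1984 and 1505 in spleen T-bet- cDC2s, at 598, 515 and 282 in spleen T-bet+ cDC2s and at 79.9, 88.7 and 70.5 in spleen cDC1s.

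These 3 spleen groups did not overlap, and cDC1s kept a low but well-counted level. T-bet+ cDC2s were 5.06-fold below T-bet- cDC2s (log2 -2.34 ± 0.37, adjusted p = 0.00676, and -2.09 with the library class as a term, adjusted p = 0.0187). T-bet- and T-bet+ cDC2s were 29.6-fold and 5.85-fold above cDC1s, with adjusted p of 4.68e-05 and 0.00122. In the MLN, Clec7a was at 315 and 492 CPM in T-bet- cDC2s, at 178 and 127 CPM in T-bet+ cDC2s and at 33.9, 72.5 and 81.0 CPM in cDC1s. The groups again did not overlap, and of the differences in the MLN only that of T-bet- cDC2s over cDC1s passed the edgeR test (6.78-fold, adjusted p = 0.00753), a call lost without T-bet- replicate 2 (2.42 on the log2 scale, adjusted p = 0.0737). DESeq2 also called that of T-bet+ cDC2s over cDC1s (1.32, adjusted p = 0.0216).

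At Clec7a the accessible window that differed most lay 4252 bases upstream of the start. It held 2.94 and 3.49 CPM in cDC1s, 10.4 and 10.1 in T-bet- cDC2s, and 21.9 and 14.7 in the T-bet+ subset. Both cDC2 subsets were above cDC1s, T-bet+ by 5.67-fold (2.51 ± 0.28, adjusted p = 1.26e-11) and T-bet- by 3.18-fold (1.67 ± 0.29, adjusted p = 3.99e-06). The difference between cDC2 subsets, 0.83 ± 0.24 with T-bet+ the higher, just missed the ATAC threshold (adjusted p = 0.0108) and ran opposite to the RNA. The window 148 bases inside the gene was called higher in T-bet- cDC2s than in cDC1s (1.61 ± 0.35, adjusted p = 0.000179), though not without cDC1 replicate 1 (1.11, adjusted p = 0.0458), and it held 6.60 and 8.92 CPM in T-bet- and 4.86 and 4.35 CPM in T-bet+ cDC2s. The upstream window is printed because it showed the largest difference of the locus from cDC1s. Capitals in it and in the windows further on mark matches to searched motifs, here a match on the reverse strand to TTGCNNAA, the C/EBP motif, which was present in 5.89% of all 177956 windows.
Clec7a, chr6:129476957-129477106, minus strand, 4252 bases upstream: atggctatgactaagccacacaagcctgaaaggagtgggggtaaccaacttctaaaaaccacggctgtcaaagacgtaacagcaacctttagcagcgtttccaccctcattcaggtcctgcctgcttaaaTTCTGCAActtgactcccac

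Cd207 encodes langerin, a mannose-binding receptor that forms the Birbeck granules of Langerhans cells and is also made by part of the cDC1s. The gene lies on the minus strand at chr6:83671215-83677857. It was at 732, 615 and 683 CPM in spleen cDC1s, at 3.75, 3.54 and 0.830 CPM in spleen T-bet- cDC2s and at 1.66, 1.24 and 0.124 CPM in spleen T-bet+ cDC2s. Spleen cDC1s stood far above both cDC2 subsets, which overlapped each other.

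Cd207 was 663-fold lower in T-bet+ cDC2s and 251-fold lower in T-bet- cDC2s than in spleen cDC1s (log2 -9.37 ± 0.92 and -7.97 ± 0.86, adjusted p = 0.000112 and 0.000218). Between spleen cDC2 subsets the difference was -1.40 ± 0.71 (adjusted p = 0.335). In MLN cDC1s the 3 libraries held 210.4, 49.9 and 64.8 CPM, the highest being replicate 1, which also had the lowest migratory marker sum. T-bet- cDC2s of the MLN held 0.168 and 0.344 CPM (5 and 9 reads), and T-bet+ cDC2s held 0.339 CPM (9 reads) in replicate 1 and 4.16 CPM (108 reads) in replicate 2. The T-bet+ library with more Cd207 also had more of the cDC1 marker Xcr1, 34.0 against 5.19 CPM, and a summed level of 7 cDC1 markers of 445 against 162 CPM. In spleen that sum was 231, 353 and 591 CPM in the T-bet- libraries, in the order of the Cd207 values above, and 190, 146 and 241 CPM in the T-bet+ libraries. The part of cDC1s in the Cd207 values was not tested.

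The MLN differences of Cd207 from cDC1s passed the test for both cDC2 subsets (T-bet+ -5.59 ± 1.16, adjusted p = 0.031; T-bet- -8.69 ± 1.41, adjusted p = 0.0125). The first value moved to -8.29 without T-bet+ replicate 2, to -4.68 without T-bet+ replicate 1 and to -4.60 without cDC1 replicate 1, and the second to -7.71 without cDC1 replicate 1. The first call was lost without T-bet- replicate 1 or 2, T-bet+ replicate 1 or cDC1 replicate 3 (adjusted p = 0.075, 0.0774, 0.0844 and 0.0612), and the second without T-bet- replicate 1 or 2 (0.161 and 0.119). In spleen cDC1s the summed level of 4 Langerhans cell markers, Cd207 with Epcam, Ltc4s and Hpgds, was 622 to 739 CPM, of which Cd207 made 615 to 732 CPM.

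Of the 3 windows assigned to Cd207, 1 was called, lower in both cDC2 subsets. This window 3831 bases upstream held 6.70 and 10.6 CPM in cDC1s, 3.05 and 1.70 in T-bet- cDC2s, and 3.13 and 3.52 in the T-bet+ subset. It was called lower than in cDC1s in the T-bet- subset (-1.88 ± 0.35, adjusted p = 1.41e-05) and likewise in the T-bet+ subset (-1.37 ± 0.33, adjusted p = 0.000552), the latter not without cDC1 replicate 2 (-1.01, adjusted p = 0.0683) nor by DESeq2 (adjusted p = 0.0114). The other 2 assigned windows were not called, and a pair of windows further upstream, closest to Vax2os, was called higher in T-bet+ cDC2s than in cDC1s (1.53, adjusted p = 0.000263, and 1.9, adjusted p = 2.03e-05). The window at 3831 bases, printed as the called one at this locus, holds none of the 8 motifs.
Cd207, chr6:83681614-83681763, minus strand, 3831 bases upstream: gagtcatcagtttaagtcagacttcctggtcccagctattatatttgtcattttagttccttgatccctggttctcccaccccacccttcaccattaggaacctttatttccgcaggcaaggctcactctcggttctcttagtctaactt

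Mrc1, the macrophage mannose receptor CD206, takes up mannose- and fucose-bearing glycoproteins and gives its name to the mannose receptor family. The gene spans 102666 bases on the plus strand at chr2:14229392-14332057 and holds Mir511, whose reads may not be separable from those of Mrc1. Per kilobase of exon its mean was the lowest of the 7 lectins in spleen T-bet- cDC2s, at 2.25 CPM per kilobase. The libraries varied widely, with 24.6, 4.52 and 14.0 CPM in spleen T-bet- cDC2s, 0.0792, 2.47 and 0.788 CPM in spleen T-bet+ cDC2s and 2.55, 4.57 and 4.79 CPM in spleen cDC1s.

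Every spleen T-bet+ library was below every T-bet- library for Mrc1, yet the difference of -3.67 ± 0.97 was not called (adjusted p = 0.0601), whereas DESeq2 called it (adjusted p = 0.000244). In the MLN the same order held, with 7.73 and 7.34 CPM in T-bet- cDC2s, 0.941 and 0.424 CPM in T-bet+ cDC2s and 1.70, 0.217 and 1.75 CPM in cDC1s. There too no difference passed the edgeR test (T-bet+ against T-bet- -3.50 ± 0.92, adjusted p = 0.314), whereas DESeq2 called that one (adjusted p = 0.00627) and T-bet- cDC2s over cDC1s (2.64, adjusted p = 0.00947). Mrc1 is itself a macrophage gene, and between the cDC2 subsets the macrophage marker sums given above moved with it. Across the other groups they did not. Spleen cDC1s had sums of 198 to 282 CPM, below those of spleen T-bet+ cDC2s, yet more Mrc1. Within spleen T-bet- cDC2s the sums, 1702, 1418 and 1203 CPM, were not in the order of the Mrc1 levels. The part of macrophages in the Mrc1 values was not tested.

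At Mrc1, 17 of 19 windows were tested. The intronic window 50052 bases from the start was called lower in T-bet+ cDC2s, with 5.13 and 4.41 CPM in T-bet- cDC2s, 0.755 and 1.76 in the T-bet+ subset, and 4.23 and 4.26 in cDC1s. It was 3.73-fold lower than in T-bet- cDC2s (-1.90 ± 0.41, adjusted p = 0.000513), and the call was lost without T-bet+ replicate 1 (-1.42, adjusted p = 0.0408). Of the rest, 2 windows in introns, 10030 and 22863 bases from the start, were lower in both cDC2 subsets than in cDC1s. The window at 20628 bases was the only Mrc1 window called higher in T-bet- cDC2s than in cDC1s, with 13.3 and 11.8 against 3.76 and 5.43 CPM (1.45 ± 0.28, adjusted p = 2.39e-05), and it held 8.20 and 7.56 CPM in T-bet+ cDC2s. The window called between cDC2 subsets is printed here, and its capitals mark TGANTCA, the AP-1 motif, found in 7.9% of all windows.
Mrc1, chr2:14279370-14279519, plus strand, 50052 bases from the gene start: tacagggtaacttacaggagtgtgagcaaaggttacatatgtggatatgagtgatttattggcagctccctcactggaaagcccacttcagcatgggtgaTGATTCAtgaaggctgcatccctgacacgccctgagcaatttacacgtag

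Ly75 encodes DEC-205, a mannose receptor family member and an endocytic receptor long used to target antigen to cDC1s. It spans 91201 bases on the minus strand at chr2:60292103-60383303. Gm13571 overlaps it on the opposite strand, and as the strand setting of the counting is not given in the sources used here, reads of both genes may not be separable. Spleen cDC1s held 124, 268 and 415 CPM, spleen T-bet- cDC2s 41.4, 14.8 and 26.5 CPM, and spleen T-bet+ cDC2s 21.7, 22.3 and 25.0 CPM.

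The spleen cDC2 subsets overlapped in Ly75 (-0.26 ± 0.45, adjusted p = 0.802), and both were below cDC1s, T-bet+ by 11.7-fold (adjusted p = 0.001) and T-bet- by 9.77-fold (adjusted p = 0.00157). In the MLN, cDC1s held 315, 587 and 595 CPM, T-bet- cDC2s 244 and 170.2 CPM and T-bet+ cDC2s 47.6 and 175 CPM. No difference between MLN subsets passed the edgeR test, the largest being -2.12 ± 0.58 for T-bet+ cDC2s against cDC1s (adjusted p = 0.0757), which DESeq2 called (-2.13, adjusted p = 0.0011). The T-bet+ library with less Ly75, replicate 1, was the one with a migratory marker sum within the spleen range, and leaving out replicate 2 made the difference from cDC1s pass (-3.34, adjusted p = 0.0148).

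Chromatin at Ly75 separated cDC1s from cDC2s at many windows. Summed over 19 windows, cDC1s held 200.2 and 212 CPM, T-bet- cDC2s 67.0 and 68.7 and T-bet+ cDC2s 76.3 and 101. Of 18 tested windows, 8 were lower and 1 higher in T-bet+ cDC2s than in cDC1s (12% and 11% of all windows). In T-bet- cDC2s, 10 were lower and 0 higher (10.6% and 7.32%). The window 6692 bases into the gene showed the largest difference, with 35.3 and 36.7 CPM in cDC1s, 3.30 and 4.01 in T-bet- cDC2s, and 4.53 and 4.97 in the T-bet+ subset (9.76-fold and 7.56-fold lower, adjusted p = 4.36e-18 and 4.31e-17). The start itself differed less: the window 41 bases upstream held 34.0 and 27.8 CPM in cDC1s, 18.8 and 18.1 in T-bet- cDC2s, and 15.2 and 22.7 in the T-bet+ subset.

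Although the RNA difference between spleen cDC2 subsets was not called, 2 of 18 tested Ly75 windows were called higher in the T-bet+ subset. Of all windows, 3.92% were. The intronic window at 83790 bases, towards the end of the gene, held 6.37 and 4.97 CPM in T-bet+ cDC2s, 1.47 and 1.203 in the T-bet- subset, and 0.470 and 1.42 in cDC1s. It was 4.24-fold above T-bet- cDC2s (2.08 ± 0.41, adjusted p = 0.000151) and above cDC1s as well (2.59 ± 0.45, adjusted p = 2.41e-06), and 96.7% of it is repeat-masked sequence. The window at 871 bases held 5.72 and 6.63 CPM in T-bet+ cDC2s, 2.08 and 2.71 in the T-bet- subset, and 5.05 and 7.49 in cDC1s. It was 2.55-fold above T-bet- cDC2s (1.35 ± 0.34, adjusted p = 0.00384), a call not made by DESeq2 (adjusted p = 0.0284) and lost without T-bet- replicate 1, T-bet- replicate 2 or T-bet+ replicate 2 (adjusted p = 0.0697, 0.0184 and 0.0271).

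The 3 Ly75 windows are printed to set the cDC1 element beside those called between cDC2 subsets. Capitals mark AP-1 matches (TGANTCA) in the first and second, and in the first also a match to GAAANNGAA, the IRF motif, which was present in 5.61% of all windows. The third holds no match.
Ly75, chr2:60376537-60376686, minus strand, 6692 bases from the gene start: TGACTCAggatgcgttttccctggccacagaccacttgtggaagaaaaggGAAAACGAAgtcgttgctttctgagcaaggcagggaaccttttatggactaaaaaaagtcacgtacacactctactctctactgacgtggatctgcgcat
Ly75, chr2:60299439-60299588, minus strand, 83790 bases from the gene start: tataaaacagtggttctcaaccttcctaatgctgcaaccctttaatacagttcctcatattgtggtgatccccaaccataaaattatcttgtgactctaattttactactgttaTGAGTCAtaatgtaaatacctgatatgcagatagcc
Ly75, chr2:60382358-60382507, minus strand, 871 bases from the gene start: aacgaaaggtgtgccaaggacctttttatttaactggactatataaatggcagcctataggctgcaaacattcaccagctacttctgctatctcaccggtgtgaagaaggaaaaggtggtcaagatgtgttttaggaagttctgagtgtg

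**Figure D3:**
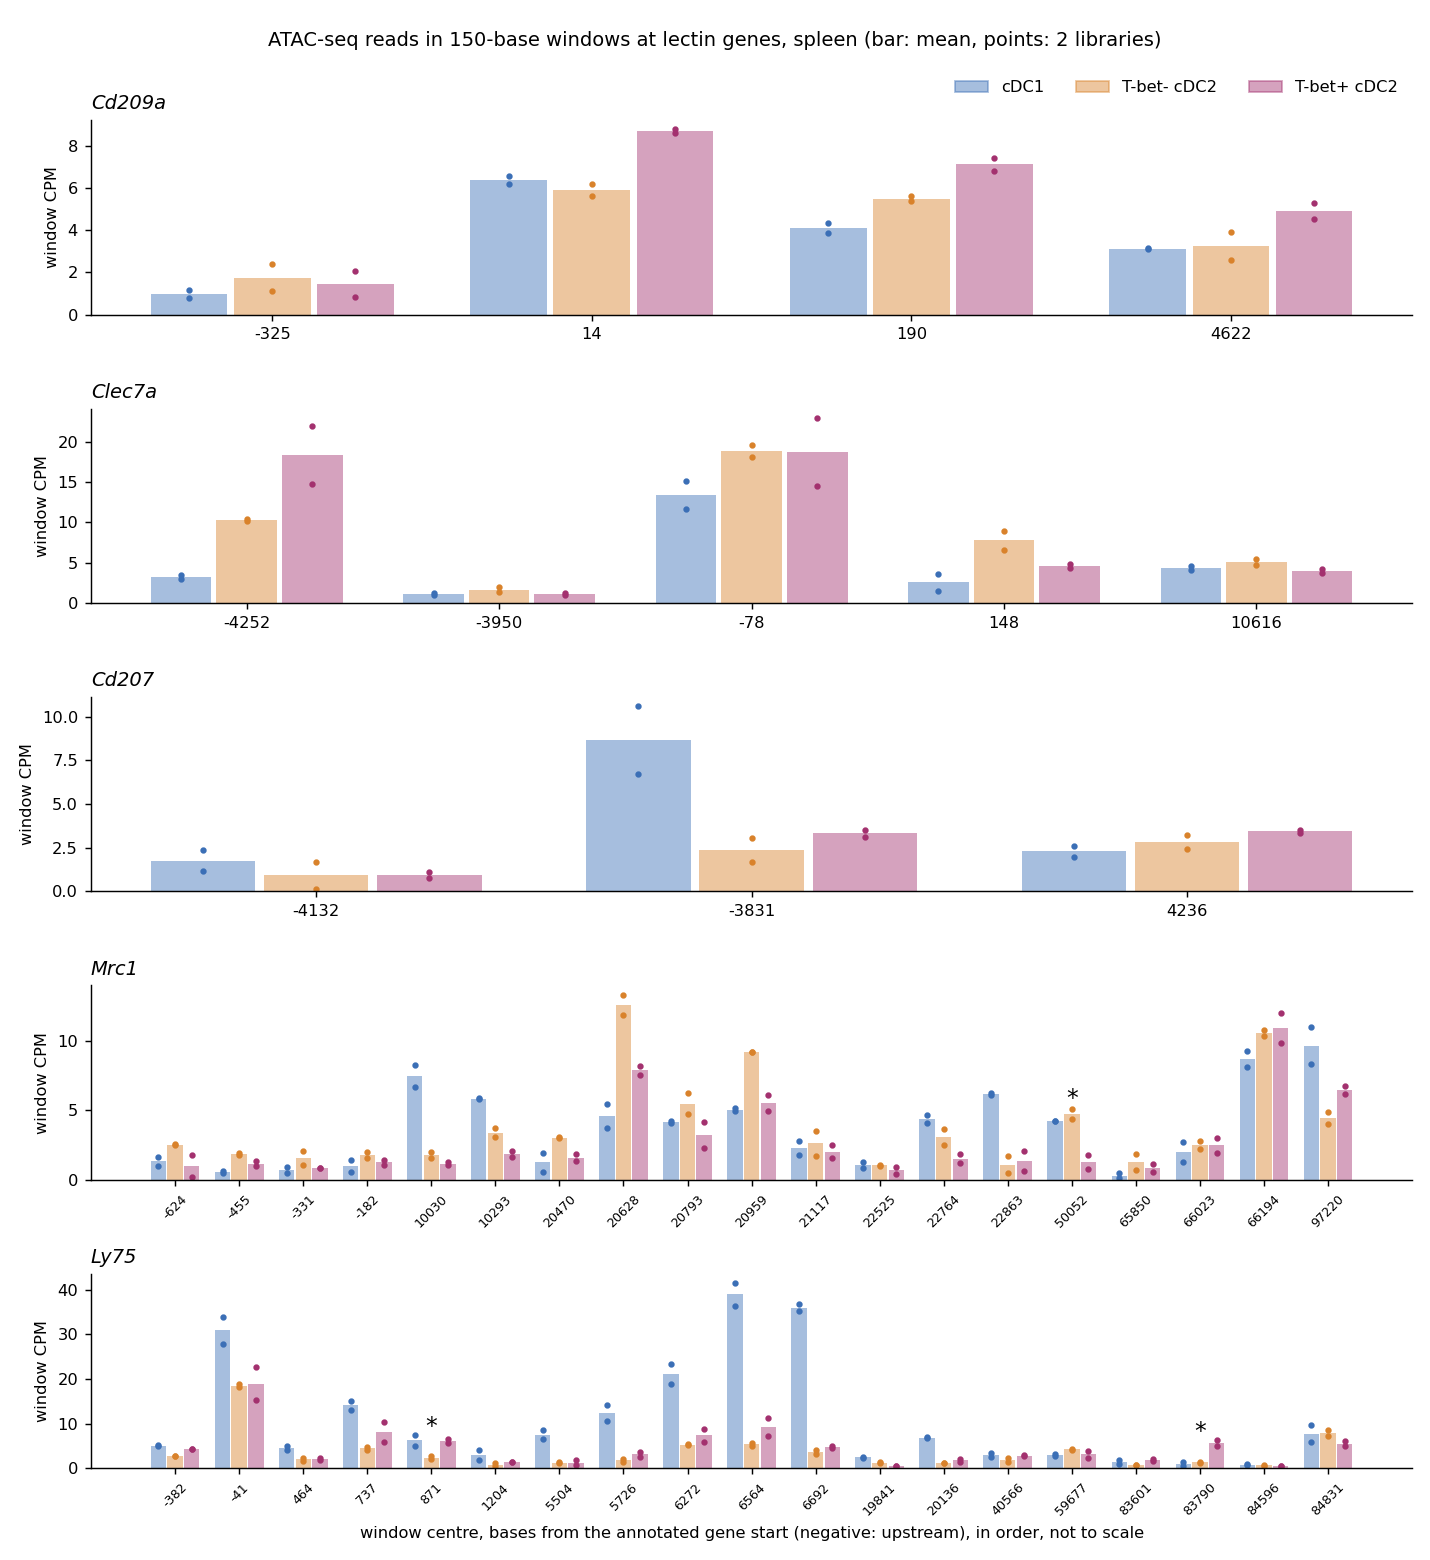
ATAC-seq reads in accessible windows of Cd209a, Clec7a, Cd207, Mrc1 and Ly75 in spleen, in CPM, by distance from the gene start; bars are means of 2 libraries per subset, points the libraries, and asterisks windows called between T-bet+ and T-bet- cDC2s. The asterisks stand over 1 Mrc1 window and 2 Ly75 windows, and the bars of cDC1s are tallest at Ly75, about the start and near 6692 bases.

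Over all loci together, 47 of the 50 windows were tested, of 166547 windows in all. Between cDC2 subsets 2 were higher and 1 lower in T-bet+ cDC2s, where 3.92% and 2.36% of all windows were higher and lower. Against cDC1s, T-bet+ cDC2s had 2 higher and 14 lower (11% and 12% of all windows), and T-bet- cDC2s had 3 higher and 14 lower (7.32% and 10.6%). The windows lower in cDC2s were mostly those of Ly75 and Mrc1, and windows of 1 locus share their gene, so the count is not one of separate events. Counted over both strands, the motifs for ETS-IRF (GGAANNGAA), PU.1 (GAGGAAGT), Runx (TGTGGTT) and the RORE core (TAGGTCA) were present in 8.0%, 4.0%, 8.0% and 4.0% of the 50 windows and in 6.8%, 5.5%, 5.23% and 1.57% of all windows. The T-box motif AGGTGTNA, present in 1.92% of all windows, was in 0 of the 50, and the searched motifs can overlap one another.

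In the MLN, lectins were called in the comparisons with cDC1s. T-bet- cDC2s had 4 lectins higher (Mgl2, Clec10a, Cd209a and Clec7a) and Cd207 lower than MLN cDC1s, where 4.34% of all genes were higher and 1.44% lower. T-bet+ cDC2s had only Cd209a higher (8.10 ± 0.56, 275-fold, adjusted p = 0.000621, and 7.33 without T-bet+ replicate 1) and Cd207 lower, where 4.11% were higher and 2.11% lower. Mgl2 lay at the threshold in the same comparison (3.15 ± 0.76, adjusted p = 0.0509), with T-bet+ replicate 1 at 8.24 CPM and replicate 2 at 1.23 CPM. The median log2 difference of the lectins was -1.43 between MLN cDC2 subsets, 1.33 for T-bet+ cDC2s against cDC1s and 2.76 for T-bet- cDC2s against cDC1s, beside -0.02, -0.0021 and 0.01 over all genes.

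**Figure D4:**
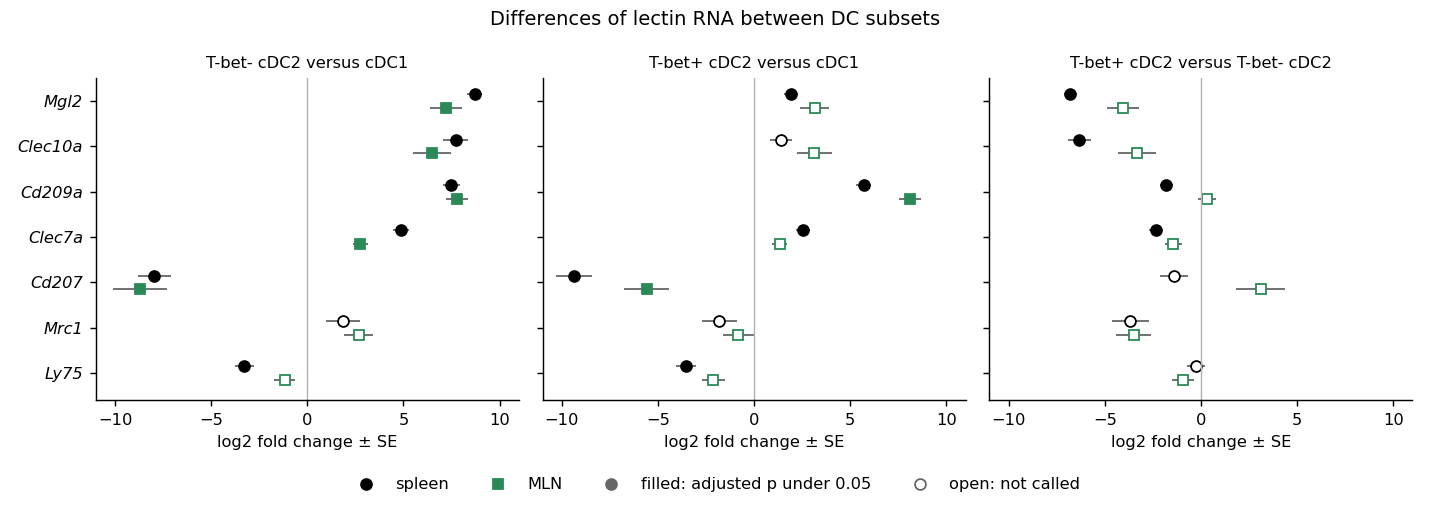
Log2 differences of the 7 lectins between subsets, with standard errors, in spleen (black circles) and MLN (green squares), from edgeR fits of each tissue; filled symbols passed an adjusted p below 0.05. In the panel of T-bet+ against T-bet- cDC2s, 4 spleen symbols are filled and none of the MLN, and Cd209a sits at -1.81 in spleen and 0.31 in the MLN.

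Between tissues, Cd209a and Clec7a were lower and Ly75 higher in T-bet- cDC2s of the MLN. Most migratory DC markers moved with tissue in every subset. Of 7 tested, 6 were higher in MLN T-bet- cDC2s (median 4.05), 5 in the T-bet+ subset (2.78) and 7 in cDC1s (3.63), with 0 lower. Ccr7 was not called in T-bet- (1.117, adjusted p = 0.188) or T-bet+ cDC2s (0.216, adjusted p = 0.812). Fscn1 was not called in T-bet+ cDC2s (1.385, adjusted p = 0.227). The part of migratory cells in the lectin values was not tested. The fit of all 16 libraries gave an 8.04-fold lower Cd209a (-3.01 ± 0.48, adjusted p = 0.00403), a 5.84-fold lower Clec7a (-2.55 ± 0.47, adjusted p = 0.00812) and a 7.51-fold higher Ly75 (2.91 ± 0.56, adjusted p = 0.00995) than in spleen, while 4.36% of 16795 genes were higher and 1.59% lower. Each of the 3 calls was lost without MLN T-bet- replicate 1 (adjusted p = 0.0718, 0.109 and 0.0772). The tissue differences of Mgl2 and Clec10a in T-bet- cDC2s were not called (0.20, adjusted p = 0.854, and -0.62, adjusted p = 0.632).

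In T-bet+ cDC2s, Mgl2 (7.76-fold, 2.96 ± 0.60, adjusted p = 0.015) and Ly75 (4.84-fold, 2.28 ± 0.56, adjusted p = 0.0332) were higher in the MLN, beside 3.79% of genes higher and 1.3% lower. Each rested on one library: without MLN T-bet+ replicate 1 the Mgl2 difference was 1.07 (adjusted p = 0.227), and without replicate 2 that of Ly75 was 1.04 (adjusted p = 0.546), the other values being 3.75 for Mgl2 without replicate 2 and 2.97 for Ly75 without replicate 1. Both calls were also lost without any single spleen T-bet+ library (adjusted p = 0.0547 to 0.0622 for Mgl2 and 0.0844 to 0.117 for Ly75), and that of Ly75 without spleen cDC1 replicate 2 (0.0518). In cDC1s, Cd209a (9.49-fold, adjusted p = 0.00139) and Cd207 (6.25-fold, adjusted p = 0.0489) were lower in the MLN, beside 7.75% of genes higher and 3.93% lower, and the Cd207 call was kept in 6 of 16 fits that left out a library, the value lying between -2.75 and -2.30 in those that lost it and at -3.63 without MLN cDC1 replicate 1. Tissue and any sort or run made for that tissue cannot be told apart.

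Whether a subset difference itself changed with tissue was tested by interaction, and 0 of the 7 lectins passed in each of the 3 interactions, where 0.00595%, 0.0893% and 0.0357% of genes passed for T-bet+ against T-bet- cDC2s, T-bet+ cDC2s against cDC1s and T-bet- cDC2s against cDC1s. At an unadjusted p below 0.05, 847, 1424 and 991 genes of 16795 passed, 4, 3 and 2 of the lectins among them. Cd209a had an interaction of 2.15 ± 0.61 between the cDC2 subsets (adjusted p = 0.779), so the change of its subset difference between tissues was not called. DESeq2 called 1, that of Cd209a for T-bet+ cDC2s against cDC1s (adjusted p = 0.0188).

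The order of group means summarises the 7 genes. Mgl2, Clec10a, Clec7a and Mrc1 had T-bet- cDC2s on top in both tissues, and for Mgl2 and Mrc1 those of spleen and MLN overlapped. For Mrc1, spleen T-bet- cDC2s also overlapped spleen cDC1s, and edgeR did not call that difference (1.855 ± 0.888, adjusted p = 0.207). Cd209a ran from spleen T-bet- over spleen T-bet+ cDC2s to the overlapping MLN cDC2s and then to cDC1s. Cd207 ran from spleen to MLN cDC1s, without overlap, and then to the 4 cDC2 groups, each overlapping the next in order. Ly75 had MLN cDC1s, spleen cDC1s, MLN T-bet- and MLN T-bet+ cDC2s each overlapping the next, above the spleen cDC2s.

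Other C-type lectin receptors of DCs were counted in the same fits. In T-bet+ against T-bet- cDC2s of spleen, 3.44% of all genes were lower and 1.95% higher. Of 32 of these receptors tested there, 16 were lower and 0 higher (median -2.34). Among them were Clec12a, an inhibitory receptor, at 6.02 to 10.1 against 193 to 243 CPM (-4.82 ± 0.27, adjusted p = 4.43e-05), Clec9a, the cDC1 receptor for dead cells, at 0.0415 to 0.262 against 1.95 to 9.19 CPM, and Clec5a at 0 to 0.712 against 12.5 to 21.5 CPM. Of 7 cDC1 markers, Clec9a included, 4 were lower and 0 higher in the T-bet+ subset, among them Cadm1 (-3.00) and Irf8 (-2.17). Xcr1, of the same list, was not called (-0.715 ± 0.276, adjusted p = 0.2). The part of cDC1s in the Clec9a value was not tested. Against cDC1s, 15 of the 32 receptors were higher and 6 lower in T-bet+ cDC2s (9.97% and 8.2% of all genes). In T-bet- cDC2s, 19 were higher and 2 lower (9.65% and 6.2%). Clec4a4 was at 128 to 161 CPM in T-bet+ cDC2s and at most 0.435 in cDC1s, and Clec4g at 7.32 to 8.42 CPM in T-bet- cDC2s and at 0 in every cDC1 library. In the MLN the counts were 0 higher and 0 lower between cDC2 subsets by edgeR, with 10 of 34 at an unadjusted p below 0.05. Against MLN cDC1s they were 10 higher and 2 lower in T-bet+ cDC2s (4.11% and 2.11% of all genes). In MLN T-bet- cDC2s they were 11 higher and 3 lower (4.34% and 1.44%). Between tissues, Mrc2, the fourth mannose receptor family gene, was higher in the MLN in cDC1s (6.56 ± 1.06, adjusted p = 0.00281) and in T-bet- cDC2s (5.30 ± 1.00, adjusted p = 0.00863).

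Siglecs, which bind sialic acid and mostly inhibit, were higher in cDC2s than in cDC1s where they were called in spleen. Of 8 tested, 5 were higher and 0 lower in each spleen cDC2 subset than in cDC1s. Of all genes, 9.97% were higher and 8.2% lower in T-bet+ cDC2s, and 9.65% and 6.2% in the T-bet- subset. Siglece was at 49.5 to 57.1 CPM in T-bet+ and 58.2 to 106 CPM in T-bet- cDC2s against 0.445 to 1.45 CPM in cDC1s. Cd22 and Siglecg, also known from B cells, were higher in the T-bet+ of the cDC2 subsets (1.23 ± 0.26, adjusted p = 0.0249, and 1.02 ± 0.19, adjusted p = 0.0161), at 212 to 269 and 245 to 287 CPM. Of 3 B cell markers tested in the same comparison, Ms4a1 was higher (2.55 ± 0.42, adjusted p = 0.00832) and Cd79b lower (-1.85 ± 0.34, adjusted p = 0.0133), with a median of 2.55, while the summed CPM of all 6 listed was 45.5 to 63.7 in the T-bet+ and 78.2 to 117 in the T-bet- subset, and their part was not tested. The galectin list held galectins, soluble lectins for beta-galactosides, and Lgals3bp, which is a galectin ligand and not a galectin. Of its 6 tested genes, Lgals3bp and Lgals3 were lower in the T-bet+ subset (-1.79 ± 0.20 and -0.98 ± 0.23, adjusted p = 0.000955 and 0.0374). Of all genes, 3.44% were lower and 1.95% higher in that comparison.

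Of 19 tested signalling genes downstream of the lectin receptors, 0 were called by edgeR between spleen T-bet+ and T-bet- cDC2s (3 at an unadjusted p below 0.05, median 0.02). Of all genes, 1.95% were higher and 3.44% lower in the T-bet+ subset, and a count of 0 is near these shares. Syk and Card9, which carry the Dectin-1 signal, were among those not called. Fcer1g, the adaptor shared by many lectin receptors, was at 554 to 711 CPM in spleen T-bet+ and 692 to 1195 CPM in T-bet- cDC2s against 14.4 to 20.6 CPM in cDC1s (5.23 ± 0.28 and 5.76 ± 0.29, adjusted p = 4.01e-06 and 3.86e-06). Syk was higher than in cDC1s in spleen T-bet- cDC2s (2.01 ± 0.28, adjusted p = 0.00103) and in spleen T-bet+ cDC2s (1.44 ± 0.27, adjusted p = 0.00534). It was also higher in MLN T-bet+ and T-bet- cDC2s than in MLN cDC1s (1.65 ± 0.24 and 2.46 ± 0.24, adjusted p = 0.0081 and 0.00174). Against cDC1s, 5 of the 19 were higher and 2 lower in spleen T-bet+ cDC2s (9.97% and 8.2% of all genes), and 5 higher and 1 lower in the T-bet- subset (9.65% and 6.2%). In the MLN, 3 were higher and 0 lower in the T-bet+ subset (4.11% and 2.11%) and likewise in the T-bet- subset (4.34% and 1.44%).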

How the data were processed

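The deposited files hold counts, which the authors made from reads aligned with HISAT2 2.1.0, kept where they aligned to one place only, and assigned to GENCODE genes (RNA), and from Bowtie2 2.2.5 alignments with shifted ends, MACS2 2.1.1.20160309 peaks called on all replicates together and windows of 150 bases around summits (ATAC, mm10). RNA was amplified from sorted cells, and ATAC-seq used 50000 cells per library. Deposited peak and window positions (other than counts, they hold no signal) were used as given. RFP+ cells were taken as T-bet+, following the labels, although one methods sentence has the reverse. The authors' R was 3.4.0 and SAMtools 1.9.

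Counts were fitted with edgeR 4.0.16 (R 4.3.3; filterByExpr, TMM, quasi-likelihood test, Benjamini-Hochberg adjustment), for spleen, MLN, all 16 RNA libraries and 6 ATAC libraries, with 6, 4, 10 and 3 residual degrees of freedom. Calls needed an adjusted p below 0.05 for RNA and, at the thresholds of the methods, below 0.01 with an absolute log2 difference over 0.5 for ATAC. The methods also kept, for each comparison, only peaks reproducible in the subsets compared, a filter not applied here. CPM values use TMM-scaled library sizes. DESeq2 1.42.0, other filters, scalings and thresholds, a block on replicate number, the library class and leaving out each library were the alternatives. A peak belonged to its closest gene within 50000 bases. Gene positions and exon lengths are from GENCODE M21, which held 19698 of 34047 symbols. Fits were tested on simulated data. All 7 members are named. Of other lists, at most 3 called genes are named, those of largest difference whose mean reached 50 normalized counts, and for each member the 3 genes most alike. Other genes named as label or cell markers, and the Ly75 window with the largest difference from cDC1s, were picked after their values were seen. The members and lists were chosen with earlier results of these data known. Intervals between libraries cover the spread of these libraries only.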

Additional observations from a re-analysis of the deposited data

How the results depend on the processing

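With each library left out in turn, the number of lectins called ranged in spleen from 3 to 4 (T-bet+ against T-bet-; main 4), 5 to 6 (T-bet+ against cDC1; 5) and 6 to 6 (T-bet- against cDC1; 6), in the MLN from 0 to 0 (0), 1 to 4 (2) and 2 to 5 (5), and between tissues from 1 to 3 in cDC1s (2), 0 to 3 in T-bet+ (2) and 0 to 3 in T-bet- cDC2s (3). The interactions stayed at 0 to 0. Windows called ranged from 2 to 4 (3), 13 to 18 (16) and 13 to 17 (17).

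For T-bet+ against T-bet- cDC2s of the MLN, DESeq2 called 2, no filter on low counts 5 and a block by library name 2, Mgl2 (-5.35, adjusted p = 0.00176) and Clec10a (-4.86, adjusted p = 0.0134). For MLN T-bet+ cDC2s against cDC1s, DESeq2 called 5, an adjusted p under 0.01 1, at least 10 counts in every library 0, no filter 6, only the subsets compared 1, the replicate block 1 and the block by library name 6. For MLN T-bet- cDC2s against cDC1s, a p under 0.01 left 3 and at least 10 counts left 1. Between tissues, T-bet+ cDC2s had 4 by DESeq2, 0 under 0.01, 5 with no filter and 0 with the replicate block. T-bet- cDC2s had 0 with the block. For cDC1s the counts were 1 under 0.01, 0 with at least 10 counts, 5 with no filter and 0 with the block. Replicates were numbered within each tissue, so a block value between tissues depends on the replicates taken as reference. The tissue counts with the block therefore cannot test the tissue differences. Interactions rose to 4, 2 and 2 with no filter and to 1 by DESeq2. At least 10 counts in every library left 2, 3 and 3 in spleen, since it leaves only 3 lectins to test there and 2 in the MLN. Whole peaks in place of windows gave 9 and 9 called against cDC1s. The cause of the other changes was not tested.

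Directions reversed for Cd209a in the MLN (T-bet+ against T-bet-, -0.006 with the block by library name, -0.43 to 0.84 with libraries left out). They also reversed for Ly75 between spleen cDC2 subsets (0.12 with the class term, -0.55 to 0.16 with libraries left out). Between tissues, with libraries left out, they reversed for Clec10a in cDC1s (-0.68 to 1.80) and Mrc1 in T-bet+ cDC2s (-1.35 to 0.66). The replicate block gave 0.18 for Clec10a between tissues in T-bet- cDC2s and 0.042 for Mrc1 in T-bet+ cDC2s. These block values depend on the replicates taken as reference, so they do not show a reversed tissue difference. With libraries left out the range also crossed 0 for tissue differences of Cd207 in T-bet+ (-1.58 to 2.08) and Mgl2 in T-bet- cDC2s (-0.15 to 0.53), and for the interactions of Cd207 (-1.28 to 0.27), Cd209a (-0.33 to 0.61) and Clec10a (-2.41 to 0.078) in T-bet- cDC2s against cDC1s, Mgl2 in T-bet+ cDC2s against cDC1s (-0.66 to 2.02), and Ly75 (-1.90 to 0.038) and Mrc1 (-0.44 to 1.59) between cDC2 subsets. None of these was called. Of 746 values of single genes and windows under other settings, 663 kept their direction and side of the threshold, and of 1224 with a library left out, 1142 did.

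Replicate numbers did not pair the samples: deviations of same-numbered libraries correlated at -0.488 to 0.17 in spleen, -0.088 to 0.411 in the MLN (0.036 to 0.411 by the number in the library name, where 7 of 7 libraries correlated best with their own number, a hint from the data only) and -0.037 to 0.019 in ATAC. Low counts of Mgl2, Clec10a and Mrc1 outside T-bet- cDC2s limit what could be seen there.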

Other observations

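Beyond the windows assigned to the lectins, a pair of windows upstream of Cd207, closest to Vax2os, was most accessible in T-bet+ cDC2s. The window 7661 bases upstream of the Cd207 start held 7.34 and 8.70 CPM in T-bet+ cDC2s, 1.22 and 3.01 in the T-bet- subset and 2.82 and 2.71 in cDC1s. It was called higher than in T-bet- cDC2s (1.88 ± 0.35, adjusted p = 6.4e-05) and than in cDC1s (1.53, adjusted p = 0.000263). Its neighbour at 7992 bases was called over cDC1s (1.9, adjusted p = 2.03e-05) and missed the threshold over T-bet- cDC2s (1.17, adjusted p = 0.012). Near Mgl2, a window 3924 bases upstream, closest to Gm12311, was accessible in cDC1s at 2.82 and 4.005 CPM, against 0.244 and 0.602 in T-bet- cDC2s, and 0.108 and 0.415 in the T-bet+ subset, so the subset with the Mgl2 RNA did not have the open window (T-bet- against cDC1s -2.92, adjusted p = 4.61e-05).

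Among 11078 genes, those whose level over the 16 libraries was most like each lectin were named by Pearson's r on log2 CPM, as a description over libraries that share subsets and tissues. Mgl2 and Clec10a both had Cx3cr1, a chemokine receptor, as the most alike gene (r = 0.955 and 0.949), and were at 0.966 with each other. Cd209a had Krt80 (0.987), Mmp12 (0.986) and Siglece (0.983), Clec7a had Atp6ap1 (0.957), Wfdc17 (0.957) and Tcp11l2 (0.95), and Cd207 had Hepacam2 (0.987), 2310031A07Rik (0.975) and Alpl (0.969). Ly75 had Clasp1 (0.974), RP23-307M2.1 (0.971) and Galnt7 (0.971), and ran opposite to Cd209a (-0.852). Mrc1 had the weakest likeness, with Mcfd2 at 0.86 and Fcgr2b and Nsf at 0.85. Mgl2 was also like Ms4a6d (0.937) and RP24-233B16.6 (0.931), and Clec10a like Plxdc2 (0.934) and Ly6i (0.933).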
